A study of Homo sapiens with 6 samples.

Results

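The genes described here are 39 genes of the NRF2 pathway, of glutathione metabolism and of antioxidant defence, measured by RNA-sequencing in 22Rv1 cells, a human prostate carcinoma epithelial line. They were taken by symbol from a table of 29804 genes, and all 39 symbols were found. They comprise 2 regulators (NFE2L2, which encodes NRF2, and KEAP1), 5 genes of detoxification and heme breakdown and 4 of glutathione synthesis and reduction. A further 3 belong to the thioredoxin system, and 4 encode pentose phosphate or malic enzymes, grouped under NADPH supply. The rest are 5 glutathione peroxidases, 6 peroxiredoxins, 3 genes for superoxide dismutases and catalase, 2 ferritin subunits and 5 glutathione transferases. The WT group was harvested untreated at the start (week 0). The AM (age matched) group was grown without drug until week 6, and the 6WP group was exposed on each week day until week 6 to phleomycin at 1 µg/ml. Phleomycin is a glycopeptide that breaks DNA and is used in place of radiation. Each group had 2 libraries, which the labels name biological replicates, and all libraries carry the genotype label WT. AM against WT therefore compares time in culture, together with anything else that differed between harvests at week 0 and week 6. At equal time, 6WP against AM compares phleomycin together with any handling that went with it. Between 6WP and WT all of these differ. Where a gene is said below to rise or fall in 6WP against AM, a difference between parallel cultures is meant, not a change over time.

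NRF2 is a transcription factor that is normally held by KEAP1, an adaptor of a ubiquitin ligase, and degraded. When oxidants or electrophiles modify cysteines of KEAP1, NRF2 accumulates, pairs with a small MAF protein and binds antioxidant response elements near its target genes. These targets include enzymes that make and regenerate glutathione, the thioredoxin system and enzymes that regenerate NADPH. Because NRF2 is controlled largely through the stability of the protein, its mRNA level does not measure its activity. Glutathione peroxidases and peroxiredoxins use thiols to reduce peroxides, superoxide dismutases turn superoxide into hydrogen peroxide, and catalase decomposes the latter. In prostate cancer the glutathione transferase gene GSTP1 is known for silencing by promoter methylation.

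The antioxidant response element is shown first, since it is the sequence through which NRF2 is known to act on many of these genes. Its core TGACNNNGC (reverse complement GCNNNGTCA) and the narrower form TGACNCAGC (reverse complement GCTGNGTCA), which is a subset of the core, were searched on both strands in the 1000 bases upstream of each RefSeq start in hg38. Of the 39 genes, 30 had an entry among the RefSeq starts. The core was present in 16 of these 30 genes (53.3%) and in 32.5% of 15843 protein-coding genes, and the narrower form was present in 7 of the 30 (23.3%) and in 4.34% of all. A match of letters is a description and not a bound site. The 6 windows below all come from genes with the core. They belong to NQO1, the classical NRF2 target, to GSTP1, and to the 4 genes with the core whose level was lower in 6WP than in AM. GPX4 and MGST1 also had the core and differed between AM and WT but not between 6WP and AM, and their windows are not printed. Each is printed 5′ to 3′ on the strand of its gene, with the core or its reverse complement in capitals.

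NQO1, chr16:69726997-69727025, minus strand: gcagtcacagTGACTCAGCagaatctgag
TALDO1, chr11:746501-746529, plus strand: acccagggacTGACTCAGCataagcggac
GCLM, chr1:93909446-93909474, minus strand: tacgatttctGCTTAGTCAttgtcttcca
TXNRD1, chr12:104215670-104215698, plus strand: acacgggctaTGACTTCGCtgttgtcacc
PGD, chr1:10398853-10398881, plus strand: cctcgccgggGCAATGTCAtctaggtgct
GSTP1, chr11:67583736-67583764, plus strand: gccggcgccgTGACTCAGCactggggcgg

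The windows of NQO1, TALDO1 and TXNRD1 lay upstream of the whole GENCODE gene, whereas those of GCLM, PGD and GSTP1 overlapped the annotated gene span, which starts before the RefSeq start used. NQO1, TALDO1 and GSTP1 carried the narrower form with the same 9 letters. GCLM and PGD carried the core on the opposite strand, and TXNRD1 carried it on the strand of the gene. In AM against WT, the core was found in 3 of 5 higher genes with an entry and 1 of 3 lower ones. In 6WP against AM, it was found in 4 of 5 lower genes and 0 of 2 higher ones. Among genes that passed the test in neither direction, the core was found in 10 of 20 and 10 of 21, in this order. EPHX1, GPX1, GPX8 and CAT passed in at least 1 comparison and had an entry but no core. These counts are small, and a link between the core and the direction of change was not tested.

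Library totals ranged from 21222201 to 35311945 counts, and 3 counts, used as the floor of detection, corresponded to 0.0883 to 0.138 CPM (counts scaled to the library total and by TMM factors, which correct for library composition). Floors and counts speak of counting error only. The replicates agreed less well in 6WP than elsewhere, with a median absolute log2 difference over genes of 0.278 in 6WP, 0.121 in WT and 0.129 in AM. All 10 markers of prostate luminal cells were detected, with summed levels of 3137 to 3302 CPM in WT, 1919 to 2264 CPM in AM and 2501 to 3664 CPM in 6WP, and the 4 endothelial markers were at or under the floor in every library. Summed levels of 10 fibroblast markers were 24.4 to 27.5 CPM in WT and 6.15 to 11.2 CPM in the other libraries, with COL1A2 and FAP at or under the floor throughout, and their part in the values below was not tested. In bulk RNA, fewer cells that express a gene and less of its RNA per cell cannot be told apart.

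Of the 39 genes, 37 passed the filter on low counts and were tested. GPX2, a glutathione peroxidase of epithelia, had 3 to 9 counts per library, and GSTP1 had 0 to 6. GSTP1 was above the floor in only 1 library, WT replicate 2, so its transcript was barely detected in any group. Per kilobase of exon, the WT means ran from 706 CPM for the ferritin light chain FTL down to 0.557 CPM for OSGIN1 among tested genes. After FTL came PRDX2 with 324, PRDX1 with 286, GPX4 with 278 and FTH1 with 255 CPM per kilobase in WT. Their SDs over 2 libraries were 3.11, 4.03, 16.6, 17.3 and 1.24 CPM per kilobase, so that PRDX1 and GPX4 did not differ beyond their spread in this order. For 13 of the 39 genes, GENCODE lists pseudogenes named after the gene (25 for FTH1, 16 for FTL and 7 for TXN), and reads that fit both could have been split or lost in the counting.

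**Figure D1:**
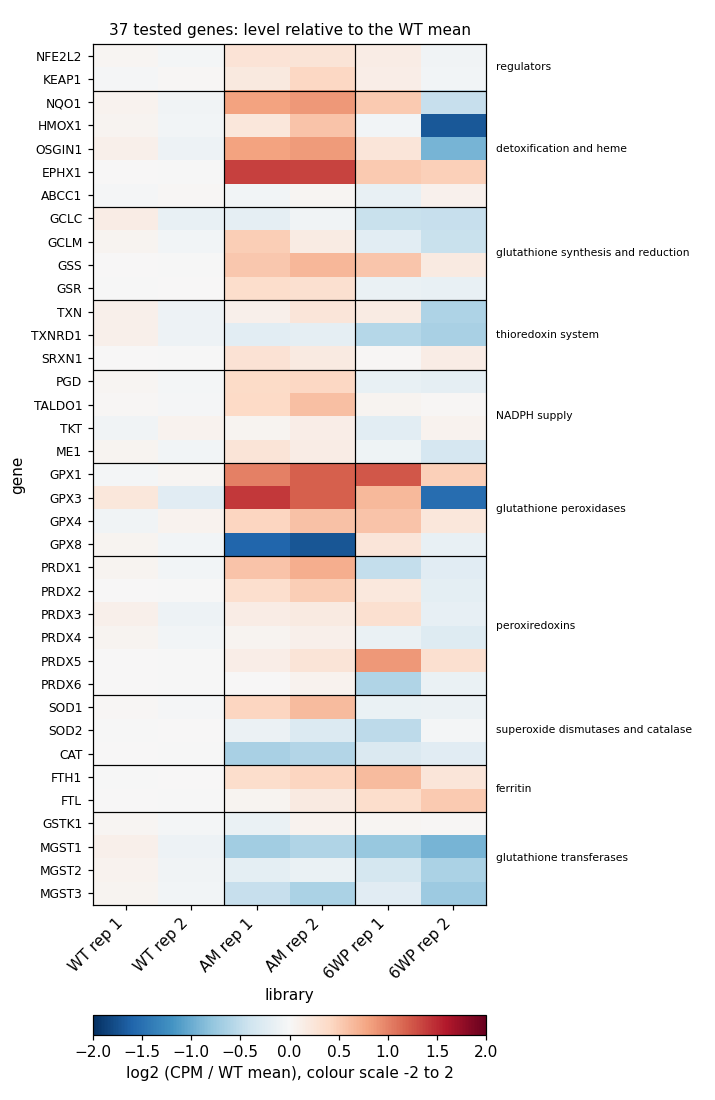
Heatmap of the 37 tested genes (vertical axis, grouped by role) in the 6 libraries (horizontal axis), with the level given as log2 of the ratio of CPM to the WT mean on a colour scale from -2 to 2. The medians over genes were 0.23 and 0.24 in the AM libraries, 0.02 in 6WP replicate 1 and -0.15 in replicate 2, and EPHX1 and GPX8 stand out in AM.

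After 6 weeks of untreated culture, more antioxidant genes rose than fell. In AM against WT, 12 of the 37 genes (32.4%) passed an edgeR adjusted p of 0.05, 9 of them higher and 3 lower, where 17.7% of all 14672 tested genes passed (7.74% higher and 9.93% lower). The genes that were higher were EPHX1, GSS, GSR, PGD, TALDO1, GPX1, GPX4, PRDX1 and SOD1, and those that were lower were GPX8, CAT and MGST1. The median log2 fold change of the 37 genes was 0.23, against -0.002 over all tested genes. The direction of the calls depended in part on the scaling. With upper quartile normalization 10 genes passed, 6 higher and 4 lower, and with library size only 7 were higher of 10. Over all genes the calls that were higher went from 1136 of 2593 to 689 of 2521 and 729 of 2393 under these 2 scalings.

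With phleomycin, the balance at week 6 lay the other way. In 6WP against AM, 10 of the 37 genes (27.0%) passed, 2 higher (GPX8 and CAT) and 8 lower (EPHX1, GCLM, GSR, TXNRD1, PGD, TALDO1, PRDX1 and SOD1). Of all tested genes 21.3% passed (11.7% higher and 9.68% lower). With upper quartile normalization 10 of the 37 genes passed, 3 higher and 7 lower. Over all genes, 2276 of 3338 calls were then higher in place of 1711 of 3131. The median log2 fold change of the 37 genes was -0.27, against 0.048 over all tested genes. This comparison and the one before share the AM libraries, so a value that is high or low in AM enters both with opposite sign.

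Between 6WP and WT few of these genes differed. EPHX1 was higher and TXNRD1 and MGST1 were lower, which makes 3 of 37 genes (8.11%), where 3.00% of all tested genes passed (1.63% higher and 1.37% lower). The median log2 fold change was -0.09, against 0.013 over all genes. At an unadjusted p under 0.05, 15 of the 37 genes passed, but the share over all genes at this limit was not counted. With DESeq2, 8 of the 37 passed, where 1114 of all genes did. DESeq2 added FTL, GPX1 and PRDX5 as higher and GCLC and MGST2 as lower. Over the 3 comparisons 14 genes passed the edgeR test at least once and 23 did not.

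These counts rested on the libraries. In every comparison, fewer of these genes passed without any 1 of the 4 WT and AM libraries. More of them passed without either 6WP library. The counts over all tested genes moved the same way, so these shifts were not particular to the genes described here. The spread between the 6WP libraries enters the error of all comparisons in the fit across all libraries, and a group left with 1 library is assumed to vary like the others.

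**Figure D2:**
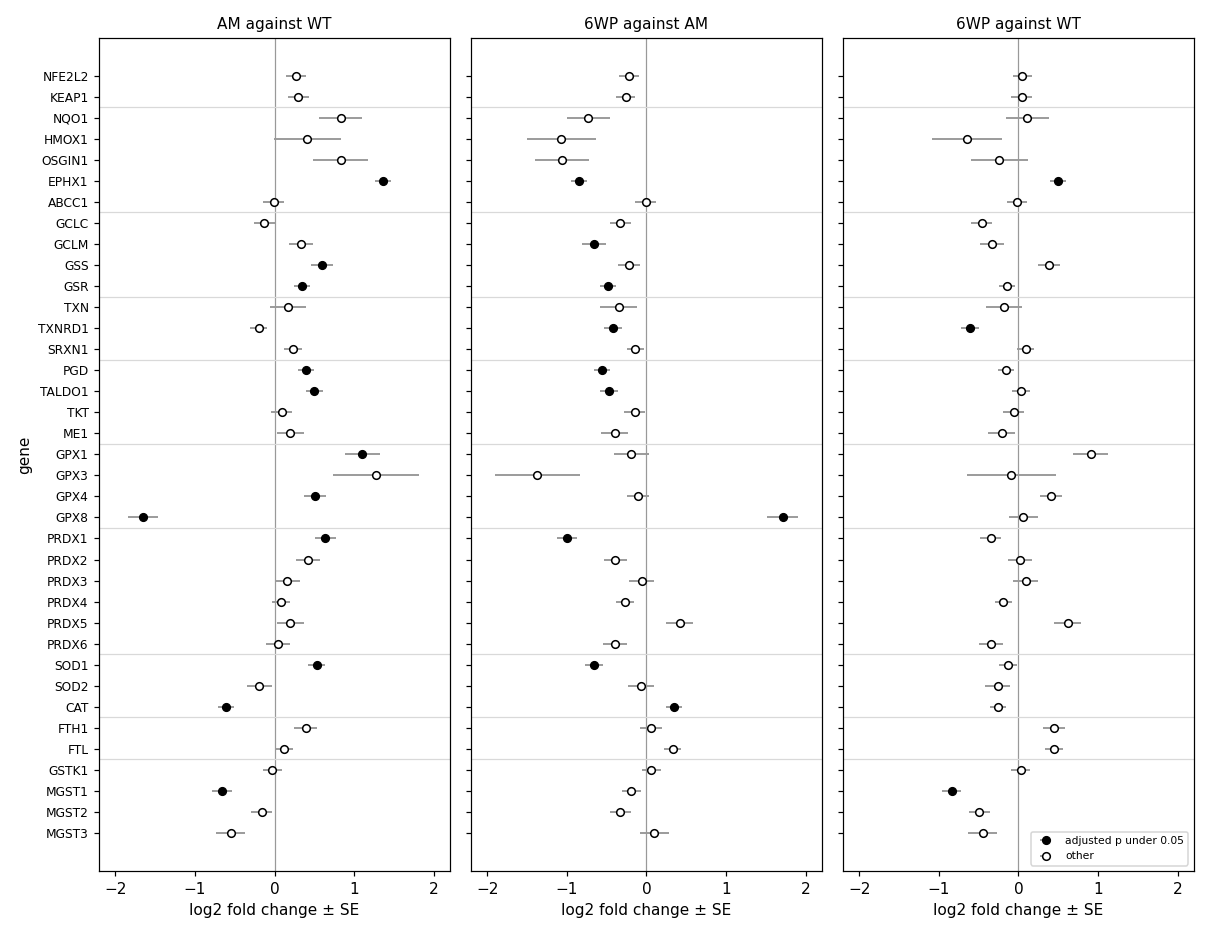
Log2 fold change with its standard error (horizontal axis, from edgeR) for the 37 tested genes (vertical axis) in the 3 comparisons, with filled points for an adjusted p under 0.05. In AM against WT 9 filled points lie above 0 and 3 below, in 6WP against AM 2 lie above and 8 below, and in 6WP against WT 1 lies above and 2 below.

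The regulators themselves did not pass the test. NFE2L2 was at 54.2 and 51.0 CPM in WT, 63.7 and 63.1 CPM in AM and 58.5 and 50.3 CPM in 6WP. KEAP1 was at 51.2 and 52.4 CPM in WT, 59.1 and 68.7 CPM in AM and 56.7 and 49.9 CPM in 6WP. Both AM libraries lay above all the others for both genes, while WT and 6WP overlapped. The log2 fold changes were 0.27 ± 0.12 (SE, edgeR adjusted p = 0.145) for NFE2L2 and 0.30 ± 0.13 (adjusted p = 0.126) for KEAP1 in AM against WT, and -0.22 ± 0.12 (adjusted p = 0.210) and -0.26 ± 0.12 (adjusted p = 0.166) in 6WP against AM. Against WT, 6WP differed by 0.05 ± 0.12 (adjusted p = 0.848) and 0.04 ± 0.13 (adjusted p = 0.881). NFE2L2 shares exon bases with other genes on both strands, among them AGPS and HNRNPA3, and the strand setting of the counting is not given in the sources used here.

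Among the detoxification genes, EPHX1 was the gene that passed in all 3 comparisons. It encodes the microsomal epoxide hydrolase, which opens reactive epoxides, and lies at chr1:225810124-225845563 (hg38, plus strand). Its level was 79.1 and 78.0 CPM in WT, 202 and 199.9 CPM in AM and 113 and 109 CPM in 6WP. The groups were fully separated, with AM highest and 6WP in between. EPHX1 was 2.56-fold higher in AM than in WT (log2 fold change 1.36 ± 0.10, edgeR adjusted p = 0.00157). On the log2 scale it was lower in 6WP than in AM by 0.85 ± 0.10 (adjusted p = 0.00290) and higher in 6WP than in WT by 0.50 ± 0.10 (adjusted p = 0.0413). Of 15 alternative ways of scaling, filtering and fitting the counts, 7 kept the last call and 8 lost it, with adjusted p from 0.00104 to 0.411, among them library size only (0.0545) and a gene length offset (0.0660). The gene shares exon bases with TMEM63A on the opposite strand.

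NQO1, the quinone reductase that serves as the standard reporter of NRF2 activity, did not pass. It was at 29.7 and 26.7 CPM in WT, 49.2 and 51.2 CPM in AM, and 40.3 and 20.5 CPM in 6WP. Both AM libraries were above all others, and the 6WP libraries lay on either side of WT. The log2 fold change was 0.83 ± 0.27 in AM against WT (edgeR adjusted p = 0.0670, DESeq2 0.0157) and -0.73 ± 0.27 in 6WP against AM (edgeR adjusted p = 0.0875, DESeq2 0.0289). In 6WP against WT it was 0.11 ± 0.27 (edgeR adjusted p = 0.853), and it became -0.48 (adjusted p = 0.0113) without 6WP replicate 1 and 0.49 (adjusted p = 0.00577) without 6WP replicate 2.

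HMOX1, the heme oxygenase, was scarce, at 5.22 and 4.82 CPM in WT, 5.90 and 7.45 CPM in AM, and 4.84 and 1.55 CPM in 6WP. Only 6WP replicate 2 stood clearly below the others. The log2 fold changes were 0.41 ± 0.42 (edgeR adjusted p = 0.513) in AM against WT, -1.07 ± 0.43 (adjusted p = 0.113) in 6WP against AM and -0.65 ± 0.44 (adjusted p = 0.420) in 6WP against WT. Without 6WP replicate 1 the last value was -1.71 (adjusted p = 0.000329), and without 6WP replicate 2 it was -0.08 (adjusted p = 0.830). The glutathione conjugate exporter ABCC1 also did not pass in any comparison, with values between -0.02 and -0.01 on the log2 scale in all 3. OSGIN1 did not pass in edgeR either, at 3.30 and 2.89 CPM in WT, 5.42 and 5.59 CPM in AM, and 3.65 and 1.62 CPM in 6WP. Its log2 fold changes were 0.83 ± 0.35 in AM against WT (edgeR adjusted p = 0.129) and -1.06 ± 0.34 in 6WP against AM (adjusted p = 0.0609). The latter passed in DESeq2 and in an edgeR fit with a replicate block (adjusted p = 0.0407).

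Glutathione is made by glutamate-cysteine ligase, whose catalytic and modifier subunits are encoded by GCLC and GCLM, and then by the synthetase GSS, and is regenerated by the reductase GSR with NADPH. GSS stood at 72.8 and 72.7 CPM in WT, 105 and 115 CPM in AM, and 107 and 82.1 CPM in 6WP. GSR stood at 343 and 347 CPM in WT, 439 and 432 CPM in AM, and 314 and 312 CPM in 6WP. Both AM libraries were above both WT libraries for both genes, and for GSR 6WP was the lowest group. In AM against WT, GSS rose by 0.60 ± 0.14 (log2, edgeR adjusted p = 0.0273) and GSR by 0.34 ± 0.10 (adjusted p = 0.0485). In 6WP against AM, GSR fell by 0.48 ± 0.10 (adjusted p = 0.0144), while GSS was at -0.22 ± 0.14 (adjusted p = 0.293). Against WT, 6WP was at 0.38 ± 0.14 for GSS (adjusted p = 0.169) and -0.14 ± 0.10 for GSR (adjusted p = 0.425). The rise of GSR kept its call in 5 of the 15 alternatives and lost it in 10, with adjusted p from 0.00162 to 0.265, among them upper quartile normalization (0.112).

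GCLM (chr1:93885199-93909456, minus strand) was at 30.8 and 28.6 CPM in WT, 41.7 and 33.2 CPM in AM, and 25.6 and 21.9 CPM in 6WP, and both 6WP libraries were below all others. It was lower in 6WP than in AM by 0.66 ± 0.15 on the log2 scale (edgeR adjusted p = 0.0221). Its values of 0.33 ± 0.15 in AM against WT (adjusted p = 0.162) and -0.33 ± 0.15 in 6WP against WT (adjusted p = 0.257) did not pass. GCLC was likewise lowest in 6WP, with 70.5 and 69.3 CPM there, 84.4 and 90.7 CPM in AM and 106 and 86.1 CPM in WT. It did not pass in edgeR (-0.46 ± 0.13 in 6WP against WT, adjusted p = 0.0908) and passed in DESeq2 (adjusted p = 0.0353).

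In the thioredoxin system, TXNRD1 was the gene that differed. It encodes the cytosolic thioredoxin reductase and lies at chr12:104215779-104350307 (plus strand), with the core element printed above 99 bases upstream. Its level was 509 and 443 CPM in WT, 409 and 421 CPM in AM, and 319.8 and 302 CPM in 6WP, so that both 6WP libraries were below all others. It was lower in 6WP than in WT by a log2 fold change of -0.61 ± 0.11 (edgeR adjusted p = 0.0329) and lower than in AM by -0.42 ± 0.11 (adjusted p = 0.0342, and 0.0622 under upper quartile normalization), with -0.20 ± 0.11 in AM against WT (adjusted p = 0.242). Its substrate TXN was at 248 and 217 CPM in WT, 249.5 and 274 CPM in AM, and 260.0 and 150.4 CPM in 6WP, where the libraries disagreed. TXN and the sulfiredoxin gene SRXN1 did not pass in any comparison.

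Of the 4 genes grouped under NADPH supply, PGD and TALDO1 moved, and TKT and the malic enzyme ME1 did not pass. PGD, TALDO1 and TKT encode pentose phosphate enzymes, of which TALDO1 and TKT do not themselves make NADPH. PGD, the phosphogluconate dehydrogenase, was at 268 and 254 CPM in WT, 341 and 349 CPM in AM, and 236 and 231 CPM in 6WP. TALDO1, the transaldolase, was at 150.4 and 146 CPM in WT, 197 and 224 CPM in AM, and 153 and 151 CPM in 6WP. Both AM libraries lay above all others for both genes. In AM against WT, PGD rose by 0.40 ± 0.10 (log2, edgeR adjusted p = 0.0301, and 0.0589 under upper quartile normalization) and TALDO1 by 0.50 ± 0.11 (adjusted p = 0.0198). In 6WP against AM, PGD fell by 0.56 ± 0.10 (adjusted p = 0.00934) and TALDO1 fell by 0.47 ± 0.11 (adjusted p = 0.0213). Between 6WP and WT, PGD was at -0.16 ± 0.10 (adjusted p = 0.373) and TALDO1 at 0.03 ± 0.11 (adjusted p = 0.886).

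The glutathione peroxidases went in different directions in AM. GPX1, the cytosolic enzyme, was at 111 and 118 CPM in WT, 229 and 263 CPM in AM, and 271 and 159 CPM in 6WP. GPX4, which reduces lipid peroxides in membranes, was at 489.9 and 535 CPM in WT, 691 and 770.3 CPM in AM, and 759 and 599 CPM in 6WP. All AM and 6WP libraries were above both WT libraries for both genes. GPX1 was 2.15-fold higher in AM than in WT (log2 fold change 1.10 ± 0.22, edgeR adjusted p = 0.0164), and GPX4 was 1.43-fold higher (0.51 ± 0.14, adjusted p = 0.0416). In 6WP against WT the values were 0.91 ± 0.22 for GPX1 (adjusted p = 0.0711, DESeq2 0.00411) and 0.41 ± 0.14 for GPX4 (adjusted p = 0.146). In 6WP against AM they were -0.19 ± 0.22 (adjusted p = 0.555) and -0.11 ± 0.14 (adjusted p = 0.614). The call of GPX4 in AM against WT was kept in 7 of the 15 alternatives and lost in 8, among them upper quartile normalization (adjusted p = 0.0696) and library size only (0.0719).

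GPX8, a peroxidase of the endoplasmic reticulum, had the largest absolute log2 fold change of any of the 12 genes that passed in AM against WT and of the 10 that passed in 6WP against AM. It lies at chr5:55160167-55167297 (plus strand). Its level was 14.6 and 13.6 CPM in WT, 4.69 and 4.30 CPM in AM, and 16.6 and 12.8 CPM in 6WP. The AM libraries were far below the other 4, while WT and 6WP overlapped. GPX8 fell by 1.65 ± 0.19 on the log2 scale from WT to AM (edgeR adjusted p = 0.00321) and was 3.27-fold higher in 6WP than in AM (1.71 ± 0.19, adjusted p = 0.00235), with 0.06 ± 0.18 between 6WP and WT (adjusted p = 0.878). GPX3, a secreted peroxidase, was at 3.08 and 2.25 CPM in WT, 7.02 and 6.00 CPM in AM, and 4.12 and 0.916 CPM in 6WP. It did not pass in edgeR, with 1.28 ± 0.54 in AM against WT (adjusted p = 0.131) and -1.37 ± 0.53 in 6WP against AM (adjusted p = 0.101). The latter passed in DESeq2 and in an edgeR fit with a replicate block (adjusted p = 0.0371).

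Of the 6 peroxiredoxins, PRDX1 differed between groups and the others did not pass in any comparison. PRDX1 is an abundant cytosolic peroxiredoxin at chr1:45510914-45542732 (minus strand). Its level was 501 and 462 CPM in WT, 711 and 792 CPM in AM, and 344 and 409 CPM in 6WP. The groups did not overlap, with AM highest and 6WP lowest. PRDX1 rose by 0.64 ± 0.13 in AM against WT (log2, edgeR adjusted p = 0.0151) and fell by 1.00 ± 0.13 in 6WP against AM (adjusted p = 0.00380), to 0.502 of the AM level. In 6WP against WT it was at -0.35 ± 0.13 (adjusted p = 0.156). It shares exon bases with MMACHC on the opposite strand. The fold changes of the 6 genes in AM against WT ran from 0.04 to 0.64, and those of PRDX4 and PRDX6 turned to -0.01 and -0.05 under upper quartile normalization. PRDX5, at 155 and 153 CPM in WT and 280.0 and 193 CPM in 6WP, was at 0.62 ± 0.17 in 6WP against WT (edgeR adjusted p = 0.0869, DESeq2 0.0263).

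SOD1 and CAT, which act in sequence on superoxide and hydrogen peroxide, went in opposite directions. SOD1, the cytosolic superoxide dismutase (chr21:31659666-31668931, plus strand), was at 234 and 225 CPM in WT, 309 and 354 CPM in AM, and 208 and 210.3 CPM in 6WP. CAT, the peroxisomal catalase (chr11:34438934-34472060, plus strand), was at 225 and 221 CPM in WT, 142 and 149 CPM in AM, and 182 and 190.5 CPM in 6WP. SOD1 was highest and CAT lowest in AM, with no overlap of AM with the other groups. SOD1 rose by 0.53 ± 0.11 in AM against WT (log2, edgeR adjusted p = 0.0170) and fell by 0.66 ± 0.11 in 6WP against AM (adjusted p = 0.00761). CAT fell by 0.61 ± 0.10 in AM against WT (adjusted p = 0.00850) and was 0.35 ± 0.10 higher in 6WP than in AM (adjusted p = 0.0391, a call that 7 of the 15 alternatives kept). In 6WP against WT, SOD1 was at -0.13 ± 0.11 (adjusted p = 0.512) and CAT at -0.26 ± 0.10 (adjusted p = 0.178). The mitochondrial SOD2 did not pass in any comparison.

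The ferritin subunits store iron and were among the most abundant of the transcripts. FTL was at 617 and 613 CPM in WT, 637 and 700.2 CPM in AM, and 788 and 887 CPM in 6WP, with 6WP above the other groups. FTH1 was at 510.3 and 514 CPM in WT, 656 and 688 CPM in AM, and 792 and 606 CPM in 6WP. Neither passed in edgeR, with 0.45 ± 0.11 for FTL (adjusted p = 0.0765) and 0.45 ± 0.14 for FTH1 (adjusted p = 0.116) in 6WP against WT, and FTL passed in DESeq2 (adjusted p = 0.0237).

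The glutathione transferases were the role with no positive log2 fold change in AM against WT, where its 4 tested genes ran from -0.66 to -0.03. MGST1, a membrane-bound transferase with peroxidase activity (chr12:16347142-16609259, plus strand), was at 199.7 and 173 CPM in WT, 115 and 122 CPM in AM, and 109.8 and 98.1 CPM in 6WP. Both WT libraries were above all others. MGST1 fell by 0.66 ± 0.12 in AM against WT (log2, edgeR adjusted p = 0.0118) and fell by 0.84 ± 0.12 in 6WP against WT (adjusted p = 0.0152), and 6WP against AM gave -0.19 ± 0.12 (adjusted p = 0.286). MGST2 was at -0.49 ± 0.13 in 6WP against WT (edgeR adjusted p = 0.0869, DESeq2 0.0307) and MGST3 at -0.55 ± 0.18 in AM against WT (edgeR adjusted p = 0.0668, DESeq2 0.0439). GSTK1 stayed between 64.1 and 74.2 CPM in all 6 libraries and did not pass.

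**Figure D3:**
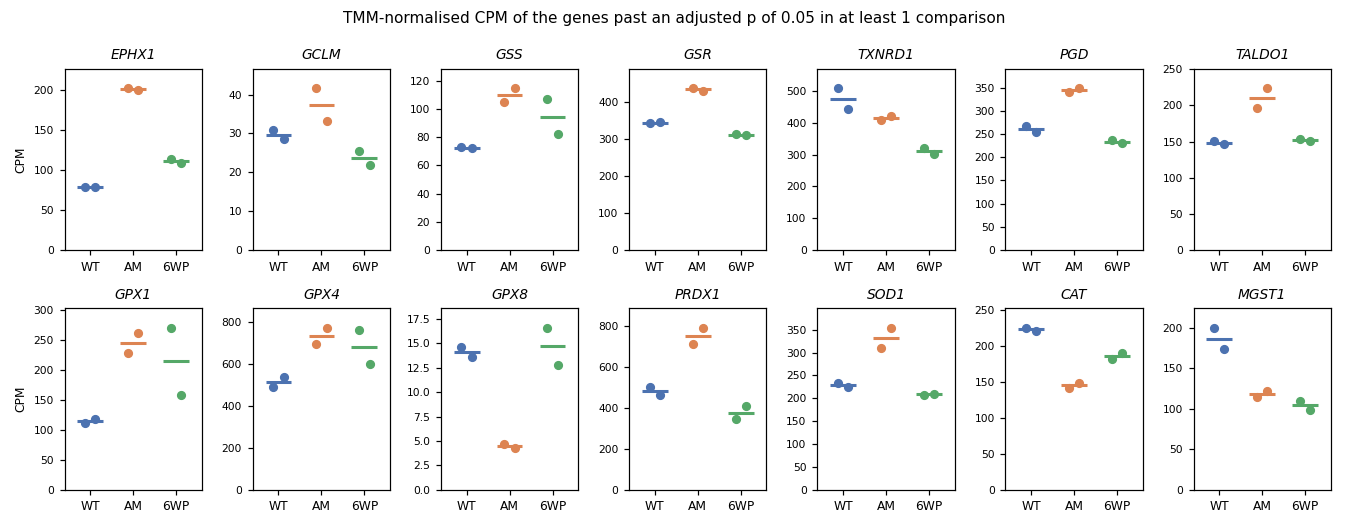
Level in CPM (vertical axes, from 0) of the 14 genes that passed an edgeR adjusted p of 0.05 in at least 1 comparison, with 1 point per library and a bar at the mean of the 2 libraries of each group (horizontal axes). EPHX1, PRDX1, SOD1, PGD, TALDO1 and GSR are highest in AM, GPX8 and CAT are lowest in AM, and MGST1 is highest in WT.

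Between the 2 cultures that received phleomycin, these genes differed about as often as all genes did. Between the 6WP libraries, 8 of the 37 genes differed by more than 0.5 on the log2 scale, and all 8 were higher in replicate 1. The share was 21.6%, where 23.8% of all genes differed by as much in 6WP. None of the 37 did so in WT or AM, where 6.02% and 6.36% of all genes did. The direction of the difference over all genes was not counted. The differences were 2.17 for GPX3, 1.64 for HMOX1, 1.17 for OSGIN1, 0.98 for NQO1, 0.79 for TXN, 0.77 for GPX1 and 0.53 for PRDX5, with MGST3 just past the limit. In contrast EPHX1, GCLC, GSR, TXNRD1, PGD, TALDO1, SOD1, CAT and GSTK1 differed by less than 0.1 between the 6WP libraries.

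**Figure D4:**
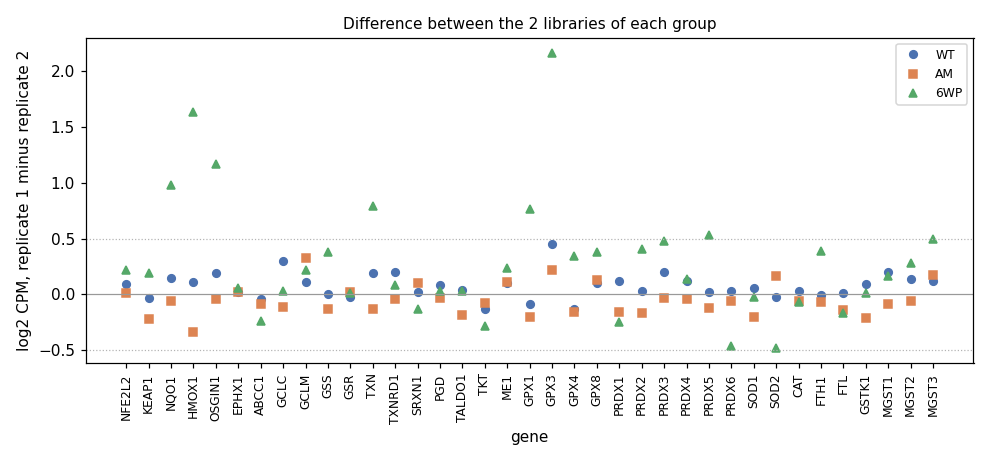
Difference in log2 CPM between replicate 1 and replicate 2 (vertical axis) for each of the 37 tested genes (horizontal axis) in WT, AM and 6WP, with dotted lines at -0.5 and 0.5. The WT and AM points all lie between the lines, while 8 of the 6WP points lie above 0.5, with GPX3 at 2.17 and HMOX1 at 1.64.

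Transcript length moved with the groups and with the 6WP libraries. Over 13751 tested genes with a known length, the median log2 fold change of AM against WT was 0.173 in the shortest of 5 length classes (exons of at most 2926 bases) and -0.13 in the longest. For 6WP against WT these medians were 0.119 and -0.074, and in 6WP against AM they were -0.016 and 0.078. The difference between 6WP replicates 1 and 2 had medians of 0.201 and -0.127. Of the 37 genes, 15 fell in the shortest class, among them EPHX1, TALDO1, GPX1, GPX4, PRDX1 and SOD1. With a length offset in the model, chosen after seeing the data, 9 of the 37 genes passed in AM against WT, 6 higher and 3 lower. Over all tested genes 2751 then passed, 1311 higher and 1440 lower. The edgeR adjusted p was 0.0787 for PRDX1, 0.0587 for SOD1, 0.0669 for GPX4 and 0.0871 for GSR, while NFE2L2 passed as higher (0.45, adjusted p = 0.0487). In 6WP against AM this offset gave 11 calls, 3 higher and 8 lower, and 3485 over all genes. PRDX5 was added there as higher (adjusted p = 0.0310). For 6WP against WT the offset gave 3 calls, all lower, and 512 over all genes, with MGST2 (adjusted p = 0.0400) in place of EPHX1.

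Beyond the 39 genes, 110 further genes of these pathways were in the table, and 96 of them were tested. In AM against WT 20 passed (11 higher and 9 lower), in 6WP against AM 28 passed (16 higher and 12 lower), and in 6WP against WT 9 passed (6 higher and 3 lower). These shares were 20.8%, 29.2% and 9.38%, where 17.7%, 21.3% and 3.00% of all tested genes passed. Their median log2 fold changes were 0.09, 0.03 and -0.00, against -0.002, 0.048 and 0.013 over all tested genes. Of 16 partners and controllers of NRF2, 1 passed in 6WP against WT (6.25%, and 3.00% of all tested genes), 3 in 6WP against AM (18.8%, and 21.3% of all) and 1 in AM against WT (6.25%, and 17.7% of all).

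Those that passed were NFE2L1, PARK7 and BACH2. NFE2L1, a relative of NRF2 that also binds antioxidant response elements, was at 136 and 141 CPM in WT, 147 and 153 CPM in AM, and 244 and 218 CPM in 6WP. Both 6WP libraries were above all others, and NFE2L1 was higher in 6WP than in WT (log2 fold change 0.74 ± 0.11, edgeR adjusted p = 0.0160) and than in AM (0.63 ± 0.11, adjusted p = 0.00828). PARK7, a redox-sensitive protein reported to stabilise NRF2, was at 306 and 278 CPM in WT, 369.7 and 411 CPM in AM, and 298 and 291 CPM in 6WP. Its AM libraries were above all others, with 0.42 ± 0.11 in AM against WT (adjusted p = 0.0368) and -0.41 ± 0.11 in 6WP against AM (adjusted p = 0.0347). BACH2 lay below 1 CPM in all libraries, at 0.215 and 0.118 CPM in AM and 0.723 and 0.599 CPM in 6WP, and was higher in 6WP than in AM (2.02 ± 0.48, adjusted p = 0.0229). BACH1, the repressor that competes with NRF2 for its elements, the small MAF gene MAFG and the autophagy receptor SQSTM1, which binds KEAP1, did not pass in any comparison. BACH1 ranged from 23.2 to 35.5 CPM, MAFG from 52.0 to 71.0 CPM and SQSTM1 from 177 to 249.6 CPM over the 6 libraries.

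Of 15 genes of glutathione supply and breakdown, 3 passed in 6WP against WT, all higher (20.0%, and 3.00% of all tested genes), 7 in 6WP against AM, 5 higher and 2 lower (46.7%, and 21.3% of all), and 6 in AM against WT, 5 higher and 1 lower (40.0%, and 17.7% of all). Their median log2 fold changes were -0.03, 0.14 and 0.33 in this order. SLC7A11, the cystine importer, was at 87.9 and 84.0 CPM in WT, 78.8 and 61.4 CPM in AM, and 125 and 164 CPM in 6WP. SLC3A2, its partner chain, was at 128 and 136 CPM in WT, 185 and 199 CPM in AM, and 316 and 292 CPM in 6WP. CHAC1, which breaks glutathione down, was at 5.71 and 8.13 CPM in WT, 13.1 and 15.1 CPM in AM, and 44.3 and 35.5 CPM in 6WP. Both 6WP libraries were above all others for the 3 genes, and for SLC3A2 and CHAC1 AM also lay above WT.

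SLC7A11 rose by 1.04 ± 0.17 in 6WP against AM (log2, edgeR adjusted p = 0.00721) and was at 0.75 ± 0.17 against WT (adjusted p = 0.0560). SLC3A2 rose by 0.54 ± 0.11 in AM against WT (adjusted p = 0.0150), by 0.67 ± 0.11 in 6WP against AM (adjusted p = 0.00704) and by 1.21 ± 0.11 in 6WP against WT (adjusted p = 0.00448). CHAC1 was 2.04-fold higher in AM than in WT (adjusted p = 0.0158), 2.82-fold higher in 6WP than in AM (adjusted p = 0.00397) and 5.77-fold higher in 6WP than in WT (adjusted p = 0.00341). All 3 genes are also known targets of ATF4.

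Of 25 other NRF2 target genes tested, 1 passed in 6WP against WT (4.0%, and 3.00% of all tested genes), 8 in 6WP against AM, 4 higher and 4 lower (32.0%, and 21.3% of all), and 2 in AM against WT (8.0%, and 17.7% of all). AKR1C3, an aldo-keto reductase that also makes androgens, was at 21.7 and 24.2 CPM in WT, 17.6 and 21.0 CPM in AM, and 41.1 and 37.6 CPM in 6WP. It was higher in 6WP than in AM (1.03 ± 0.14, edgeR adjusted p = 0.00473) and than in WT (0.78 ± 0.14, adjusted p = 0.0328). Its near copy AKR1C1, at 8.87 and 9.48 CPM in AM and 23.1 and 13.9 CPM in 6WP, was higher in 6WP than in AM (1.01 ± 0.23, adjusted p = 0.0224), and reads of these paralogs may have been exchanged in the counting. CBR3, a carbonyl reductase, at 7.92 and 9.07 CPM in AM and 4.99 and 3.28 CPM in 6WP, was lower in 6WP than in AM (-1.04 ± 0.30, adjusted p = 0.0407). BLVRB, a biliverdin reductase, at 24.9 and 27.3 CPM in WT and 49.1 and 65.3 CPM in AM, was higher in AM than in WT (1.13 ± 0.25, adjusted p = 0.0224).

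Among the other thiol enzymes, 6 of 22 tested passed in AM against WT, 2 higher and 4 lower (27.3%, and 17.7% of all tested genes), 6 in 6WP against AM, 4 higher and 2 lower (27.3%, and 21.3% of all), and 2 in 6WP against WT, 1 higher and 1 lower (9.09%, and 3.00% of all). TXNIP, the inhibitor of thioredoxin, was at 1182 and 1134 CPM in WT, 321 and 442 CPM in AM, and 1184 and 1369 CPM in 6WP. The AM libraries were far below the other 4. TXNIP fell by 1.60 ± 0.17 in AM against WT (log2, edgeR adjusted p = 0.00258) and rose by 1.74 ± 0.17 in 6WP against AM (adjusted p = 0.00203).

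SESN2, a stress-induced sestrin, was at 36.3 and 35.6 CPM in WT, 47.6 and 57.1 CPM in AM, and 119 and 87.8 CPM in 6WP. It rose by 0.98 ± 0.16 in 6WP against AM (log2, edgeR adjusted p = 0.00818) and by 1.53 ± 0.17 in 6WP against WT (adjusted p = 0.00654), with 0.54 ± 0.17 in AM against WT (adjusted p = 0.0583). MSRB3, a methionine sulfoxide reductase, was scarce, at 1.74 and 1.70 CPM in WT, 0.344 and 0.294 CPM in AM, and 0.614 and 0.528 CPM in 6WP. It fell by 2.43 ± 0.35 in AM against WT (adjusted p = 0.00668) and fell by 1.58 ± 0.32 in 6WP against WT (adjusted p = 0.0439). GLRX, a glutaredoxin, at 4.43 and 5.39 CPM in AM and 2.82 and 1.66 CPM in 6WP, fell by 1.14 ± 0.29 in 6WP against AM (adjusted p = 0.0287).

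The remaining lists hold glutathione transferases and iron genes. Of 10 other transferases tested, 2 passed in each of AM against WT and 6WP against AM (20.0%, and 17.7% and 21.3% of all tested genes) and 0 in 6WP against WT, where 1 had an unadjusted p under 0.05 and 1 passed in DESeq2. GSTA1, at 1.43 and 0.735 CPM in WT and 0.0861 and 0.235 CPM in AM, fell by 2.62 ± 0.56 in AM against WT (adjusted p = 0.0202). This value is uncertain in size, since AM replicate 1 lay under its floor of 0.129 CPM and the WT libraries differed 1.94-fold. The prostaglandin synthase PTGES, at 10.9 and 10.3 CPM in AM and 4.55 and 4.61 CPM in 6WP, fell by 1.21 ± 0.17 in 6WP against AM (adjusted p = 0.00546). Of 8 iron and heme genes tested, 3 passed in AM against WT (37.5%, and 17.7% of all tested genes) and 2 in each of 6WP against AM and 6WP against WT (25.0%, and 21.3% and 3.00% of all). The transferrin receptor TFRC was at 839 and 748 CPM in WT, 1674 and 1291 CPM in AM, and 614 and 431 CPM in 6WP, and the iron exporter SLC40A1 at 32.8 and 32.5, 10.8 and 10.5, and 20.7 and 15.0 CPM. TFRC was highest and SLC40A1 lowest in AM. TFRC rose by 0.90 ± 0.19 in AM against WT (adjusted p = 0.0201) and was lower in 6WP than in AM, at 0.353 of the AM level (adjusted p = 0.00402), while SLC40A1 fell by 1.62 ± 0.17 in AM against WT (adjusted p = 0.00270), rose by 0.75 ± 0.17 in 6WP against AM (adjusted p = 0.0218) and was lower in 6WP than in WT (-0.87 ± 0.17, adjusted p = 0.0399).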

How the data were processed

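RNA of 22Rv1 cells in 3 groups of 2 libraries was prepared by the authors with a stranded kit. The deposited values are raw counts per gene symbol, not normalized and not pooled. The submitters' processing notes name hg38, STAR 2.5.3a, featureCounts 1.5.3, Subread, StringTie 1.3.3, edgeR 3.22.3 and R 3.5.0. The annotation and strand setting are not given in the sources used here.

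Counts were analysed with R 4.3.3 and edgeR 4.0.16 (limma 3.58.1, DESeq2 1.42.0). Genes were kept by filterByExpr with the 3 groups, which left 14672 of 29804. A quasi-likelihood model with TMM factors and no covariates took in all 6 libraries and gave 3 two-sided comparisons, with Benjamini-Hochberg adjustment over all tested genes and a threshold of 0.05. SE was obtained from the log2 fold change and its F statistic. The common dispersion was 0.0173, and replicates had a chi-square per degree of freedom of 5.83 in WT, 9.36 in AM and 67.2 in 6WP. An exact permutation test of 2 against 2 libraries cannot go below p = 0.333. The script was tested on simulated data. Exon lengths and positions are from GENCODE and start sites from RefSeq (GRCh38.p14), both on hg38, and lengths are of the union of exons.

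The genes, the further pathway list (111 symbols, 110 in the table) and the marker lists were chosen with earlier results of these data known. Of the 39 genes, those past the threshold in at least 1 comparison, NFE2L2, KEAP1, NQO1 and HMOX1 are given in full. From the further list, the rule names those past the threshold with an absolute log2 fold change above 1, with their calls, and SLC7A11, BACH1, MAFG and SQSTM1. Another gene that the rule names is not reported here. Values of OSGIN1, GCLC, TXN, GPX3, PRDX5, FTL, FTH1, MGST2, MGST3, GSTK1, NFE2L1 and PARK7 were added after their values were seen. Neuroendocrine markers (7 genes) summed to 238 to 313 CPM and immune markers (6 genes) to 0.344 to 1.12 CPM. The 15 alternatives changed the scaling (upper quartile, DESeq2's size factors, or library size only), the filter (none beyond 1 count, or at least 10 counts in every library), the tool (Wald test of DESeq2), the libraries (6 fits without 1 library, and 1 with just the groups compared) or the model (a replicate block, or a gene length offset).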

Additional observations from a re-analysis of the deposited data

How the results depend on the processing

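Of the 15 alternatives, 14 were planned and the gene length offset was chosen after seeing the data. Of 25 gene values that passed, 1 (EPHX1 in AM against WT) passed in all 15, and none changed sign in any. For 6WP against WT, then 6WP against AM, then AM against WT, the genes that passed numbered 3, 10 and 12 of the 39, 440, 3131 and 2593 of all and 9, 28 and 20 of the further list. With only the 2 groups compared in the fit, they numbered 0, 5 and 23 of the 39, 96, 1309 and 6620 of all, and 5, 17 and 58 of the further list. In 6WP against WT, DESeq2's Wald test gave 8, 1114 and 18, and no filter beyond 1 count gave 6, 894 and 17. Leaving out 1 library at a time gave, in that order, 0 to 16, 0 to 28 and 1 to 23 of the 39, 0 to 3870, 116 to 6807 and 67 to 6654 of all, and 0 to 37, 2 to 55 and 1 to 59 of the further list, lowest without a WT or AM library and highest without a 6WP library. With 2 libraries a group and a floor of 3 counts, GPX2 and GSTP1 could not be compared.

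Same-numbered replicates did not deviate together (correlations 0.0395 for WT and AM, 0.0873 for WT and 6WP, and -0.0206 for AM and 6WP). Whether they were cultured or prepared together cannot be told from these values. With a replicate block 2, 12 and 12 of the 39 genes and 393, 3069 and 2485 of all passed.

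Log2 fold changes that changed sign had not passed. With upper quartile normalization these were ABCC1 0.08, PRDX3 0.03 and SOD2 0.02 in 6WP against AM and PRDX4 -0.01 and PRDX6 -0.05 in AM against WT. With library size only they were ABCC1 0.02 in 6WP against AM and PRDX6 -0.02 in AM against WT, and with at least 10 counts in every library ABCC1 0.01 in 6WP against AM. With the length offset they were ABCC1 0.03, KEAP1 -0.0032, PRDX2 -0.12, SRXN1 -0.0037, TALDO1 -0.04 and TKT 0.01 in 6WP against WT, and ABCC1 0.10, FTL -0.07, PRDX4 -0.10, PRDX6 -0.10, SOD2 0.01 and TXN -0.02 in AM against WT. Leaving out 1 library gave, in 6WP against WT, ABCC1 -0.18 to 0.08, GPX3 -1.55 to 0.60, GPX8 -0.16 to 0.21, GSTK1 -0.01 to 0.08, KEAP1 -0.07 to 0.11, NFE2L2 -0.08 to 0.13, NQO1 -0.48 to 0.49, OSGIN1 -0.95 to 0.21, PRDX2 -0.21 to 0.19, PRDX3 -0.18 to 0.29, SRXN1 -0.0033 to 0.14, TKT -0.23 to 0.06 and TXN -0.64 to 0.14. In 6WP against AM it gave ABCC1 -0.17 to 0.10, FTH1 -0.15 to 0.21, GPX1 -0.63 to 0.11, GPX4 -0.29 to 0.02, GSTK1 -0.04 to 0.17, MGST3 -0.17 to 0.30, PRDX3 -0.32 to 0.13 and SOD2 -0.36 to 0.15. In AM against WT it gave ABCC1 -0.07 to 0.03, GCLC -0.26 to 0.03, GSTK1 -0.15 to 0.06 and PRDX6 -0.0021 to 0.07. The cause of these changes was not tested.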
